A study of Mus musculus with 9 samples.

Results

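The liver X receptors (LXRs) are nuclear receptors that bind oxidised sterols and switch on genes by which a macrophage gets rid of cholesterol. They bind DNA as heterodimers with retinoid X receptors (RXRs), and their targets include transporters that pass cholesterol to lipoproteins outside the cell and an enzyme that limits the uptake of lipoprotein cholesterol. Cholesterol that is not exported is stored in lipid droplets after sterol O-acyltransferases esterify it, and macrophages full of such esters are the foam cells of atherosclerosis. The 10 genes described here were taken from a list given by symbol, chosen with earlier results of these data known. They cover the receptors (Nr1h2, Nr1h3), efflux genes (Abca1, Abcg1, Apoe), other described LXR targets (Mylip, Arl4c, Smpdl3a) and the esterifying enzymes (Soat1, Soat2). Each matched 1 of the 55487 gene identifiers in the count tables, and all 10 were among the 13453 genes with enough counts to be tested.

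The libraries are from J774A.1, a mouse macrophage line, with 3 libraries for each guide RNA: SLC12A9 sgRNA 15, SLC12A9 sgRNA 11 and Safe sgRNA, the control guide. The genotype label reads SLC12A9 knockdown for both SLC12A9 guides and WT for the safe guide, while the design text of the series speaks of knockout. Cells of all 3 groups had been grown with 10% serum and glutamine and were then kept for 6 h without serum or glutamine before lysis. The series asks what loss of Slc12a9, a member of the cation-chloride cotransporter family that it ties to lysosomal osmolarity, does to gene expression in that medium. The labels do not say whether replicates were separate cultures, or whether the cells with a guide were a clone or a pool, so p-values measure the spread between these libraries, which may be technical.

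Gene counts per library ranged from 16405296 to 25613961. Slc12a9 mRNA stood at 48.2, 50.01 and 51.7 CPM (counts scaled to a common library size, with TMM factors) with sgRNA 15, at 62.6, 66.3 and 67.0 CPM with sgRNA 11, and at 44.8, 53.5 and 47.0 CPM with safe sgRNA. It was not lower with either guide: the log2 difference was 0.05 with sgRNA 15 (edgeR adjusted p = 0.426) and 0.43 with sgRNA 11 (edgeR adjusted p = 6.45e-13), and directions below are those of the libraries labelled with a guide. All 8 macrophage markers examined passed the filter on low counts, and their summed level was 6700.4 to 6782 CPM with sgRNA 15, 8391 to 8663 CPM with sgRNA 11 and 4624 to 4832 CPM with safe sgRNA. The sum was dominated by Lyz2, the lysozyme gene, singled out after its values were seen, at 3567 ± 37.7 CPM with sgRNA 15, 4513 ± 87.2 CPM with sgRNA 11 and 1727 ± 117 CPM with safe sgRNA (SD over 3 libraries a group). The 8 markers did not move as one: 6 rose and 1 fell (Fcgr1, log2 -0.34) with sgRNA 15, where Csf1r was not called (-0.02), and 7 rose and 1 fell (Cd68, -0.17) with sgRNA 11. Of all tested genes, 62.9% were called with sgRNA 15 and 65.8% with sgRNA 11. Of 16 markers of epithelial cells, fibroblasts, T cells and B cells, 9 had no count in any library and only Pdgfra passed the filter. The fibroblast markers summed to 1.88 to 2.61 CPM with sgRNA 15, 1.84 to 2.46 CPM with sgRNA 11 and 1.21 to 1.68 CPM with safe sgRNA, and those of the other 3 cell types to at most 0.362 CPM. The part of the marker differences in the results below was not tested, and in bulk RNA fewer cells of a type and less RNA per cell cannot be told apart.

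Most of the 10 genes were higher with the SLC12A9 guides, by very unequal amounts. In the edgeR quasi-likelihood test with Benjamini-Hochberg adjustment over all tested genes (called at an adjusted p under 0.05), 8 rose and 0 fell with sgRNA 15 against safe sgRNA, in a comparison in which 62.9% of all tested genes were called, 32.2% as higher and 30.7% as lower. With sgRNA 11, 8 rose and 1 fell, where 65.8% of all tested genes were called, 33.3% as higher and 32.4% as lower. The median log2 fold change of the 10 genes was 0.50 with sgRNA 15 and 0.33 with sgRNA 11, beside medians of 0.01 and 0.01 over all tested genes. Without regard to direction, the median size of the log2 change over all tested genes was 0.29 with sgRNA 15 and 0.32 with sgRNA 11. Soat2, Smpdl3a and Arl4c had the highest folds with both guides, while Abca1, a widely used readout of LXR activity, was within 1.08-fold of the control level. With both guides 7 of the 10 genes rose and 0 fell, beside 26.0% of all tested genes that rose and 25.7% that fell with both. Both comparisons use the same 3 safe libraries.

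**Figure D1:**
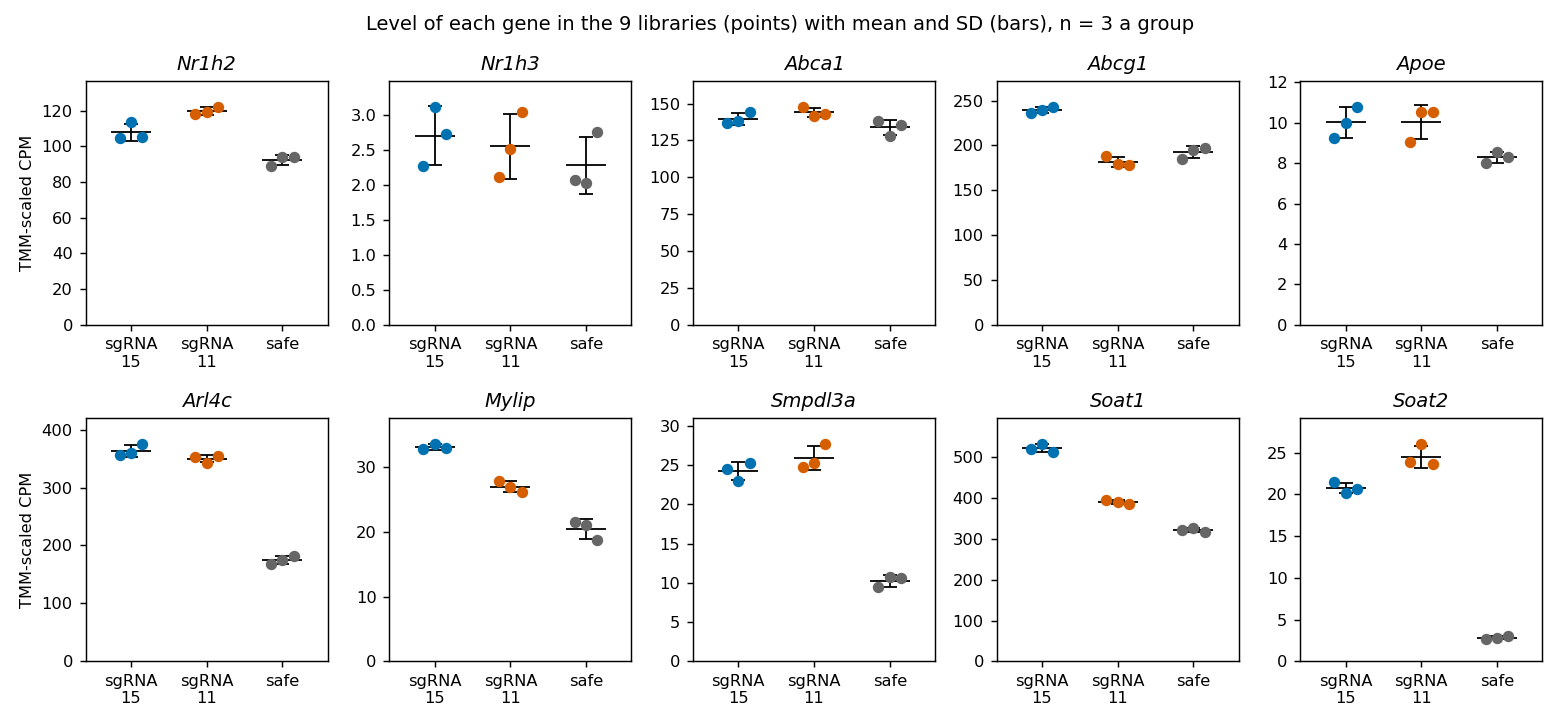
Level of each of the 10 genes in CPM (vertical axes, each from 0) in the 3 libraries of sgRNA 15, sgRNA 11 and safe sgRNA (points), with the mean and SD as bars. Soat2, Smpdl3a and Arl4c in the lower row lie far above the safe libraries with both guides, while the Abca1 and Nr1h3 points of sgRNA 15 overlap those of safe sgRNA.

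Of the receptors, the LXR beta gene carried nearly all of the LXR message. Nr1h2, which encodes LXR beta, the form found in most tissues (ENSMUSG00000060601, mm10 chromosome 7, 44549616 to 44553951, minus strand), had 105, 113 and 105 CPM with sgRNA 15, 118, 119 and 122 CPM with sgRNA 11, and 89.1, 93.8 and 94.0 CPM with safe sgRNA. The 3 groups did not overlap, with sgRNA 11 highest and safe sgRNA lowest. Nr1h2 rose 1.17-fold with sgRNA 15 (log2 0.23, SE 0.04, edgeR adjusted p = 5.20e-08) and 1.30-fold with sgRNA 11 (log2 0.38, SE 0.04, edgeR adjusted p = 3.70e-16). After a correction for GC content and transcript length the log2 differences were 0.13 and 0.20, still called.

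Nr1h3, which encodes LXR alpha, the form enriched in liver, fat and macrophages and itself an LXR target in human macrophages (ENSMUSG00000002108, chromosome 2, 91184061 to 91202834, minus strand), was near the lower limit of what the counts can resolve. It had 2.27, 3.11 and 2.72 CPM with sgRNA 15, 2.11, 2.51 and 3.04 CPM with sgRNA 11 and 2.08, 2.02 and 2.75 CPM with safe sgRNA, on raw counts of 40 to 74 reads per library. The groups overlapped, and neither guide differed from safe sgRNA beyond the spread. The 95% interval of the log2 difference ran from -0.16 to 0.68 with sgRNA 15 and from -0.25 to 0.59 with sgRNA 11, so a change of the size seen at Nr1h2 was not detectable. Per exon length, the Nr1h3 level was 3.33 ± 0.39% of the Nr1h2 level with sgRNA 15, 2.84 ± 0.47% with sgRNA 11 and 3.30 ± 0.54% with safe sgRNA (SD, n = 3 each).

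Of the efflux genes, Abca1 stayed close to its control level and Abcg1 went different ways with the guides. Abca1 encodes the transporter that loads cholesterol and phospholipid onto lipid-poor apolipoprotein A-I (ENSMUSG00000015243, chromosome 4, 53030787 to 53159895, minus strand), and its promoter holds the element by which LXR-RXR heterodimers are known to bind it, a direct repeat with a spacer of 4 bases. The RefSeq promoter on GRCm38.p6, from 250 bases before to 50 bases after the start of the gene, is shown because Abca1 is a widely used readout of LXR activity, beside that of Arl4c, which changed far more. Capitals mark the match to GGTTA followed by 4 bases of any kind and CGGTCA, searched on both strands and found in Abca1 on the reverse strand, with its first base 67 bases before the start.
Abca1 (chr4:53159846-53160145, minus strand): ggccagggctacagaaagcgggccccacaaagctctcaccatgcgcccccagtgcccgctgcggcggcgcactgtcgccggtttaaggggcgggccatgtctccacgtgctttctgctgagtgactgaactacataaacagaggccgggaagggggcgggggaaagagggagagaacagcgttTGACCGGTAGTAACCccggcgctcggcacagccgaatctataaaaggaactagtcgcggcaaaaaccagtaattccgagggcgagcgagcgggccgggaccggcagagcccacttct
Arl4c (chr1:88702142-88702441, minus strand): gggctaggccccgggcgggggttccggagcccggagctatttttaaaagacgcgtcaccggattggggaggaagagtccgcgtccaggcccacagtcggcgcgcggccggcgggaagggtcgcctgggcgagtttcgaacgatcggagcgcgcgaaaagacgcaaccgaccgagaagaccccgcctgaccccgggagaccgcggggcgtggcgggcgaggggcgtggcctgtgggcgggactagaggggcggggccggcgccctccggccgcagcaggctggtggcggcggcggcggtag

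These letters, chosen after the Abca1 sequence was seen, were in 4 of 32851 RefSeq promoters of the same length (0.0122%), and Abca1 was the one member with a match among the 7 members in the table (Abca1, Nr1h2, Nr1h3, Mylip, Apoe, Arl4c and Soat1). The shorter nuclear receptor hexamer AGGTCA, searched on both strands, was in 16.3% of all these promoters and in 0 of the 10 promoters of the 7 members. A match describes letters and not binding, and no match says only that these letters are not in this window.

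Abca1 had 137, 138 and 144 CPM with sgRNA 15, 148, 142 and 143 CPM with sgRNA 11 and 138, 128 and 135 CPM with safe sgRNA. The sgRNA 15 libraries overlapped the safe libraries, and the lowest sgRNA 11 library lay just above the highest safe one. The log2 difference from safe sgRNA was 0.06 with sgRNA 15 (SE 0.03, edgeR adjusted p = 0.120, 95% interval -0.01 to 0.12) and 0.11 with sgRNA 11 (SE 0.03, edgeR adjusted p = 0.00279, 95% interval 0.04 to 0.17). The call with sgRNA 11 was lost without safe replicate 2 (log2 0.06, edgeR adjusted p = 0.111) and its value was 0.07 after the GC and length correction. The sgRNA 15 value was called with library size as the only scaling (log2 0.09, edgeR adjusted p = 0.00745). It was -0.041, with the opposite sign, after the GC and length correction. In these settings the median log2 difference over all tested genes with sgRNA 15 was 0.05 and -0.041, against 0.01 in the main fit.

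Abcg1 encodes a transporter that moves cholesterol towards mature high-density lipoprotein (ENSMUSG00000024030, chromosome 17, 31057675 to 31117988, plus strand). It had 236, 239.6 and 243 CPM with sgRNA 15, 188, 179 and 178 CPM with sgRNA 11 and 185, 195 and 197 CPM with safe sgRNA. The sgRNA 15 libraries all lay above the other 6, while those of sgRNA 11 and safe sgRNA overlapped. Abcg1 rose 1.25-fold with sgRNA 15 (log2 0.32, SE 0.03, edgeR adjusted p = 3.01e-17). With sgRNA 11 it fell by 0.08 on the log2 scale (SE 0.03, edgeR adjusted p = 0.0124), a call that was lost with library size as the only scaling, with no filter on low counts, with a minimum mean of 5 CPM and without sgRNA 11 replicate 2, with adjusted p-values from 0.0528 to 0.152 in edgeR, and whose value was -0.18 after the GC and length correction. Over all tested genes the median log2 difference with sgRNA 11 was 0.05 with library size as the only scaling. It was -0.03 after the GC and length correction, against 0.01 in the main fit. In the direct test Abcg1 was 1.32-fold higher with sgRNA 15 than with sgRNA 11 (log2 0.40, SE 0.03, edgeR adjusted p = 1.71e-21). Per exon length the Abca1 level was 41.0 ± 0.65% of the Abcg1 level with sgRNA 15, 55.8 ± 0.50% with sgRNA 11 and 49.1 ± 3.19% with safe sgRNA (SD, n = 3 each).

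Apoe encodes apolipoprotein E, which primary macrophages secrete as a cholesterol acceptor and of which J774 cells are known to make little (ENSMUSG00000002985, chromosome 7, 19696109 to 19699188, minus strand). It had 9.27, 10.01 and 10.8 CPM with sgRNA 15, 9.07, 10.5 and 10.5 CPM with sgRNA 11 and 7.99, 8.54 and 8.31 CPM with safe sgRNA. Every library with a SLC12A9 guide lay above the safe libraries, by a small margin. The rise was 1.21-fold with each guide (log2 0.27, SE 0.11, edgeR adjusted p = 0.0204 with sgRNA 15, and log2 0.28, SE 0.11, edgeR adjusted p = 0.0168 with sgRNA 11). Both calls were lost after the GC and length correction, where the log2 value was 0.21 with sgRNA 15 (edgeR adjusted p = 0.066) and 0.13 with sgRNA 11 (edgeR adjusted p = 0.27). In the other settings that lost a call the value stayed at 0.21 to 0.26. With sgRNA 15 it was 0.26 in DESeq2 (adjusted p = 0.0593), 0.26 without sgRNA 15 replicate 2 (edgeR adjusted p = 0.0538), 0.21 without sgRNA 15 replicate 3 (edgeR adjusted p = 0.113) and 0.24 without safe replicate 1 (edgeR adjusted p = 0.0805). With sgRNA 11 it was 0.25 without sgRNA 11 replicate 2 (edgeR adjusted p = 0.0576), 0.23 without sgRNA 11 replicate 3 (edgeR adjusted p = 0.0861) and 0.25 without safe replicate 1 (edgeR adjusted p = 0.0615).

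Arl4c, Smpdl3a and Mylip, the other listed genes described as LXR targets, rose with both guides. Arl4c encodes a small GTPase of the ARF family, described as an LXR target that helps cholesterol reach the plasma membrane (ENSMUSG00000049866, chromosome 1, 88673125 to 88702221, minus strand). It had 356, 359.9 and 375 CPM with sgRNA 15, 352, 343 and 354 CPM with sgRNA 11 and 169, 175 and 182 CPM with safe sgRNA. Every library with a SLC12A9 guide lay far above the highest safe library. Arl4c rose 2.08-fold with sgRNA 15 (log2 1.05, SE 0.03, edgeR adjusted p = 1.56e-51) and 2.00-fold with sgRNA 11 (log2 1.00, SE 0.03, edgeR adjusted p = 4.61e-50).

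Smpdl3a encodes a secreted phosphodiesterase related to acid sphingomyelinase, described as an LXR target in human macrophages (ENSMUSG00000019872, chromosome 10, 57794335 to 57811830, plus strand). It had 24.5, 23.0 and 25.2 CPM with sgRNA 15, 24.7, 25.3 and 27.7 CPM with sgRNA 11 and 9.42, 10.8 and 10.6 CPM with safe sgRNA. The SLC12A9 guides overlapped each other and stood apart from the safe libraries. It rose 2.37-fold with sgRNA 15 (log2 1.24, SE 0.08, edgeR adjusted p = 1.33e-24) and 2.54-fold with sgRNA 11 (log2 1.34, SE 0.08, edgeR adjusted p = 4.58e-27).

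Mylip encodes IDOL, a ubiquitin ligase through which LXR limits the uptake of lipoprotein cholesterol (ENSMUSG00000038175, chromosome 13, 45389742 to 45412022, plus strand). It had 32.8, 33.6 and 32.9 CPM with sgRNA 15, 27.9, 26.9 and 26.2 CPM with sgRNA 11 and 21.5, 21.1 and 18.7 CPM with safe sgRNA. The groups stood apart in that order. It rose 1.61-fold with sgRNA 15 (log2 0.69, SE 0.07, edgeR adjusted p = 3.47e-16) and 1.32-fold with sgRNA 11 (log2 0.40, SE 0.07, edgeR adjusted p = 1.93e-07).

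Both cholesterol-esterifying enzymes rose, the rarer of the pair by far the more. Soat1 encodes the sterol O-acyltransferase that makes cholesteryl esters in macrophages (ENSMUSG00000026600, chromosome 1, 156424525 to 156474331, minus strand). It had 521, 533 and 513 CPM with sgRNA 15, 397, 391 and 387 CPM with sgRNA 11 and 321, 326 and 317 CPM with safe sgRNA, again with no overlap. Soat1 rose 1.63-fold with sgRNA 15 (log2 0.70, SE 0.02, edgeR adjusted p = 3.22e-42) and 1.22-fold with sgRNA 11 (log2 0.28, SE 0.02, edgeR adjusted p = 8.14e-18).

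Soat2 encodes the second sterol O-acyltransferase, best known from intestine and liver (ENSMUSG00000023045, chromosome 15, 102150526 to 102163469, plus strand). It had 21.4, 20.1 and 20.7 CPM with sgRNA 15, 23.9, 26.1 and 23.6 CPM with sgRNA 11 and 2.64, 2.83 and 3.08 CPM with safe sgRNA, on 342 to 542 reads in each library with a SLC12A9 guide and 56 to 66 in each safe library. The 3 groups did not overlap, with sgRNA 11 highest. It rose 7.32-fold with sgRNA 15 (log2 2.87, SE 0.11, edgeR adjusted p = 3.08e-40) and 8.63-fold with sgRNA 11 (log2 3.11, SE 0.11, edgeR adjusted p = 1.10e-43). Per exon length the Soat2 level was 17.6 ± 0.77% of the Soat1 level with sgRNA 15, 27.7 ± 1.56% with sgRNA 11 and 3.92 ± 0.34% with safe sgRNA (SD, n = 3 each). Soat1 thus remained the more abundant message in all 9 libraries.

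**Figure D2:**
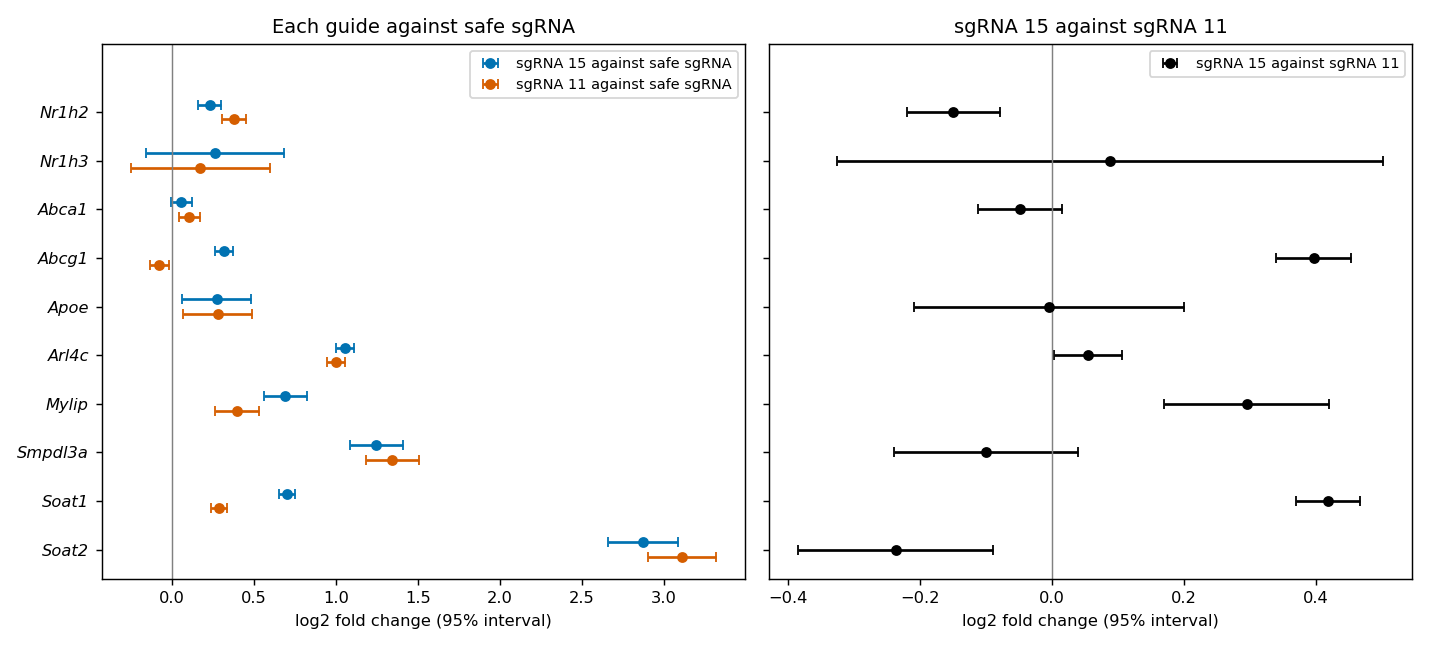
Log2 fold changes of the 10 genes (points) with 95% intervals that are not adjusted for the number of genes, on the left for sgRNA 15 (blue) and sgRNA 11 (orange) against safe sgRNA and on the right for sgRNA 15 against sgRNA 11. Soat2 stands at 2.87 and 3.11 on the left, and on the right the intervals of Abcg1, Mylip and Soat1 lie well above 0, that of Arl4c, which was not called after adjustment, just above it, and those of Nr1h2 and Soat2 below it.

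Set against each other, the guides differed at 5 of the 10 genes, 3 higher and 2 lower with sgRNA 15 than with sgRNA 11, in a comparison in which edgeR called 33.5% of all tested genes, 2416 as higher and 2086 as lower. Soat1 was 1.34-fold higher with sgRNA 15 (log2 0.42, SE 0.02, edgeR adjusted p = 1.00e-26) and Mylip 1.23-fold higher (log2 0.29, SE 0.06, edgeR adjusted p = 6.87e-05), beside Abcg1. Nr1h2 was lower by 0.15 on the log2 scale (SE 0.04, edgeR adjusted p = 0.000354) and Soat2 by 0.24 (SE 0.07, edgeR adjusted p = 0.00809), and both calls were lost after the GC and length correction, with values of -0.07 (adjusted p = 0.105) and -0.18 (adjusted p = 0.0577). The Soat2 call was also lost without sgRNA 11 replicate 2 (log2 -0.20, edgeR adjusted p = 0.0579). For Arl4c (log2 0.05, edgeR adjusted p = 0.102), Smpdl3a (-0.10, edgeR adjusted p = 0.297) and Abca1 (-0.05, edgeR adjusted p = 0.257) the 95% intervals of the difference between the guides were 0.00 to 0.11, -0.24 to 0.04 and -0.11 to 0.02. After the GC and length correction Arl4c (0.08, edgeR adjusted p = 0.0104) and Abca1 (-0.11, edgeR adjusted p = 0.00273) were called. The intervals were wider for Apoe (-0.21 to 0.20) and Nr1h3 (-0.33 to 0.50).

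**Figure D3:**
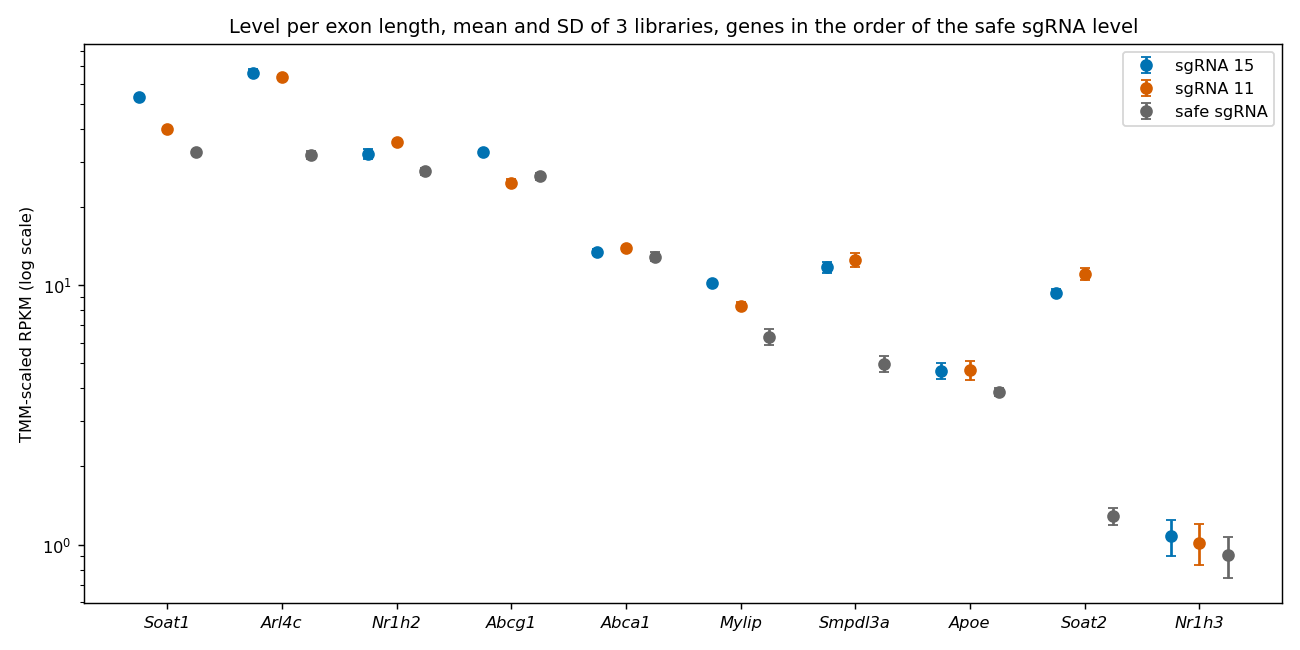
Level of each gene per exon length (TMM-scaled RPKM, log axis), as mean and SD of 3 libraries, for sgRNA 15 (blue), sgRNA 11 (orange) and safe sgRNA (grey), with genes in the order of their safe level. Soat2 is at 9.38 RPKM with sgRNA 15 and 11.1 RPKM with sgRNA 11, and next to last with safe sgRNA at 1.29 RPKM.

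Per exon length (RPKM, the scaled CPM per kilobase of exon), the order of the 10 genes shifted with the guides. With sgRNA 15, Arl4c led at 66.2 ± 1.89 RPKM, followed by Soat1 at 53.4 ± 1.04, Abcg1 at 32.8 ± 0.48 and Nr1h2 at 32.1 ± 1.46, and the ranges of Abcg1 and Nr1h2 overlapped. With sgRNA 11 the leading genes were Arl4c at 63.7 ± 1.06, Soat1 at 39.97 ± 0.52, Nr1h2 at 35.7 ± 0.60 and Abcg1 at 24.9 ± 0.74 RPKM, with no overlap between neighbours. With safe sgRNA, Soat1 at 32.8 ± 0.51 and Arl4c at 31.9 ± 1.21 RPKM overlapped, as did Nr1h2 at 27.5 ± 0.83 and Abcg1 at 26.4 ± 0.89 RPKM (SD, n = 3 in each group). Abca1 came next in each group, at 13.5 ± 0.38 RPKM with sgRNA 15, 13.9 ± 0.30 RPKM with sgRNA 11 and 12.9 ± 0.50 RPKM with safe sgRNA. Nr1h3 was last in each group, at 1.07 ± 0.17 RPKM with sgRNA 15, 1.02 ± 0.18 RPKM with sgRNA 11 and 0.91 ± 0.16 RPKM with safe sgRNA.

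Other genes of the pathway did not all follow the same direction. Of 9 RXR partners and coregulators, 8 were tested, of which 5 rose and 2 fell with sgRNA 15 and 6 rose and 0 fell with sgRNA 11 (edgeR, medians log2 0.25 and 0.29), where 62.9% of all tested genes were called with sgRNA 15 and 65.8% with sgRNA 11. Rxra, which encodes RXR alpha, rose to 92.8 ± 3.00 CPM with sgRNA 15 and 79.9 ± 0.68 CPM with sgRNA 11, against 52.4 ± 2.53 CPM with safe sgRNA, and Rxrb, which encodes RXR beta, to 128 ± 2.98 CPM with sgRNA 15 and 162 ± 4.03 CPM with sgRNA 11, against 98.6 ± 5.22 CPM with safe sgRNA (SD, 3 libraries a group). The corepressor gene Ncor1 (log2 0.29 with sgRNA 15 and 0.35 with sgRNA 11) and the coactivator gene Ncoa1 (0.49 and 0.58) rose as well, Ncor1 with sgRNA 15 by 0.19 after the GC and length correction.

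Of 14 further LXR targets 6 were tested, and 5 of these fell and 1 rose with each guide (medians log2 -0.49 with sgRNA 15 and -0.72 with sgRNA 11). Of all tested genes 30.7% fell with sgRNA 15, 32.4% with sgRNA 11 and 25.7% with both. Lpl, the lipase that frees fatty acids from lipoproteins, fell to 233 ± 4.75 CPM with sgRNA 15 and 209 ± 7.64 CPM with sgRNA 11, against 781 ± 19.9 CPM with safe sgRNA (SD over 3 libraries a group). In log2 units, Fasn, the fatty acid synthase gene, fell by 0.74 with sgRNA 15 and by 1.01 with sgRNA 11, and the desaturase gene Scd1, low in all libraries, fell by 1.15 and 1.56. Lpcat3, which remodels membrane phospholipids, fell by 0.23 and 0.43. Lpcat3 shares 10.2% of its exon length with another gene and is uncertain. Lpl, Fasn and Scd1 also respond to other regulators, SREBP1 among them, and the part of any regulator in these falls was not tested.

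Of 7 enzymes that make or convert oxysterols, the ligands of LXR, Cyp27a1 was the one with enough counts to be tested. It encodes the mitochondrial sterol 27-hydroxylase, and it rose to 80.9 ± 3.27 CPM with sgRNA 15 and 90.4 ± 1.95 CPM with sgRNA 11, against 38.0 ± 1.73 CPM with safe sgRNA (SD, n = 3 each, log2 1.09 and 1.25, SE 0.05 each, edgeR adjusted p = 4.88e-37 and 8.18e-42).

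Of 11 genes of cholesteryl ester hydrolysis and of sterol transport inside the cell 10 were tested, and 7 rose and 1 fell with sgRNA 15 and 8 rose and 2 fell with sgRNA 11 (medians log2 0.25 and 0.21). Of all tested genes 32.2% rose with sgRNA 15 and 33.3% with sgRNA 11. The lysosomal cholesterol exporters Npc1 (log2 0.78 with sgRNA 15 and 0.25 with sgRNA 11) and Npc2 (0.42 and 0.32) and the oxysterol-binding protein gene Osbp (0.26 and 0.17, the second 0.10 after the GC and length correction) rose with both guides. Nceh1, which encodes a neutral cholesteryl ester hydrolase and so acts opposite to the Soat enzymes, had 392, 391 and 401 CPM with sgRNA 15, 182, 179 and 179 CPM with sgRNA 11 and 266, 266 and 266 CPM with safe sgRNA. It was thus above the safe level with sgRNA 15 (log2 0.57, SE 0.03, edgeR adjusted p = 3.45e-35) and below it with sgRNA 11 (log2 -0.56, SE 0.03, edgeR adjusted p = 1.45e-33).

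Of 9 lipoprotein receptors and other transporters 6 were tested, and 3 rose and 2 fell with each guide (medians log2 0.24 with sgRNA 15 and -0.12 with sgRNA 11). These 5 of 6 called, in both directions, stand beside 62.9% of all tested genes called with sgRNA 15 and 65.8% with sgRNA 11. The scavenger receptor gene Scarb1, whose product exchanges cholesterol with high-density lipoprotein, fell by 0.64 with sgRNA 15 and by 0.60 with sgRNA 11 on the log2 scale. The endocytic receptor gene Lrp1 rose 1.46-fold and 1.58-fold, and the transporter gene Abca7, a close relative of Abca1, rose 1.29-fold and 1.64-fold. The 6 SREBP2 targets examined, which cells lower when sterol in the endoplasmic reticulum is plentiful, all fell with both guides (medians log2 -0.59 and -1.24), as did 25.7% of all tested genes. Insig1, which retains SREBPs in the endoplasmic reticulum, fell to 105 ± 3.12 CPM with sgRNA 15 and 54.6 ± 3.10 CPM with sgRNA 11, against 155 ± 6.80 CPM with safe sgRNA (SD over 3 libraries a group). Idi1, the gene of an isomerase of cholesterol synthesis, fell by 0.83 with sgRNA 15 and by 1.45 with sgRNA 11, in log2 units. All 6 were higher with sgRNA 15 than with sgRNA 11 in the direct test (median log2 of sgRNA 15 against sgRNA 11 0.62). In that test 2416 of all 13453 tested genes were called as higher.

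**Figure D4:**
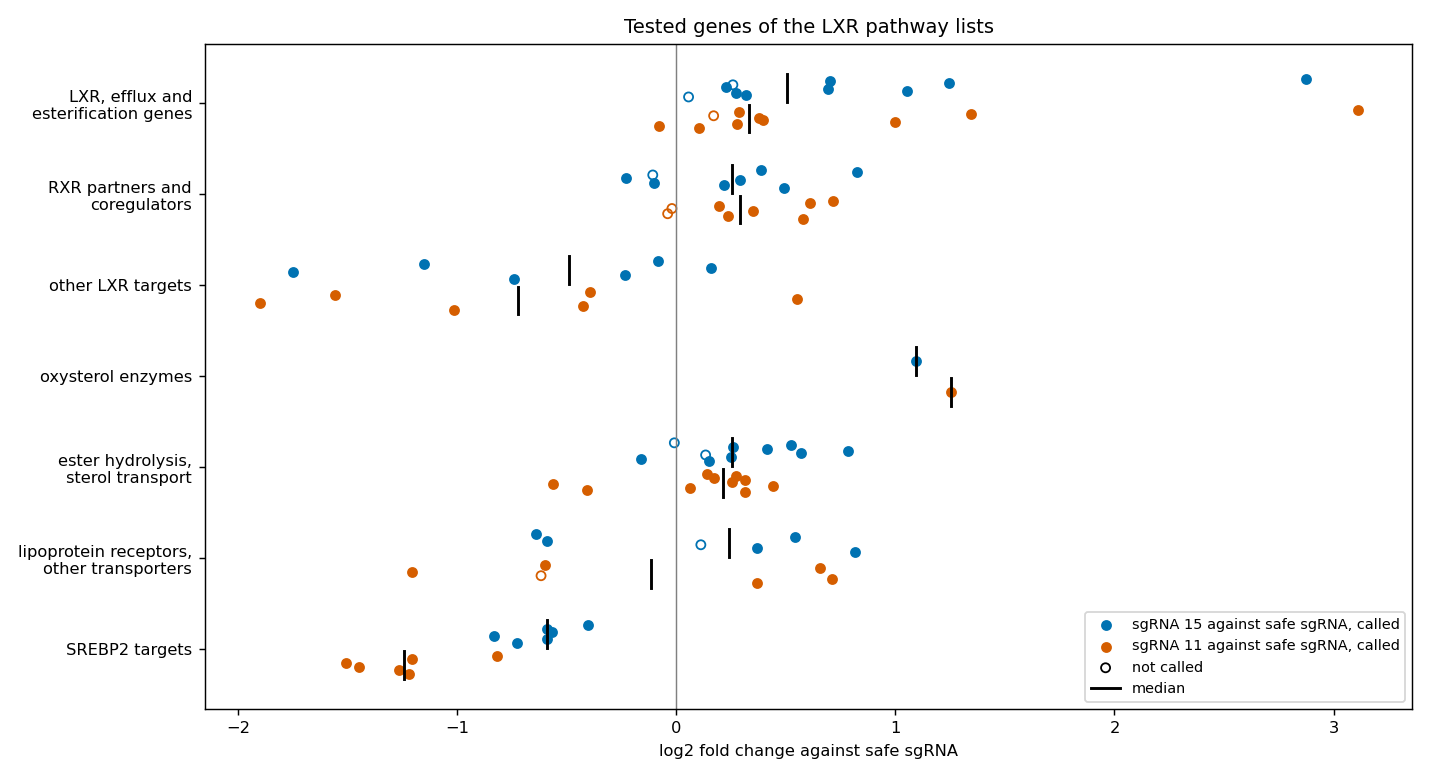
Log2 fold changes against safe sgRNA of the tested genes of each list (1 point per gene), in blue for sgRNA 15 and orange for sgRNA 11, filled where called and open where not, with the list's median as a black bar. The 10 LXR, efflux and esterification genes have medians of 0.50 and 0.33, other LXR targets -0.49 and -0.72, and SREBP2 targets -0.59 and -1.24.

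Over the 9 libraries, the genes whose log2 CPM was most like that of Soat2, among 9300 genes with a mean of at least 5 CPM, were Calcoco1, an autophagy receptor gene (Pearson r = 0.9996), Pck2, the mitochondrial phosphoenolpyruvate carboxykinase gene (r = 0.9988), and Sesn2, a stress-induced sestrin gene (r = 0.9985). These rose 2.45-fold, 4.80-fold and 3.06-fold with sgRNA 15 and 2.63-fold, 5.33-fold and 3.27-fold with sgRNA 11. For Abca1 they were Immp2l, a mitochondrial inner membrane peptidase gene (r = 0.975), Glrx2, the mitochondrial glutaredoxin gene (r = 0.959), and Spn, the gene of the leukocyte surface sialoprotein CD43 (r = 0.943). Each r describes 9 libraries that fall into 3 groups, and is given with no test.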

How the data were processed

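Poly(A) RNA of 9 J774A.1 libraries was analysed, grouped by the guide in their titles. The deposited values are raw counts of reads per gene. The submitters' processing notes name STAR, HTSeq and mm10, and tool versions, annotation and strand setting are not given there. The 5 tallies of reads assigned to no gene (19.3 to 20.7% of each table) stayed out of library sizes and tests. Symbols, positions and exon lengths came from GENCODE M21 (mm10), and promoters from RefSeq (GRCm38.p6).

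Counts were fitted with edgeR 4.0.16 in R 4.3.3: filterByExpr (minimum count 10), TMM factors (0.979 to 1.02), and a robust quasi-likelihood model of all 9 libraries with 6 residual degrees of freedom and no replicate block. Tests were 2-sided, with Benjamini-Hochberg adjustment over 13453 genes in each comparison. The procedure was tested on simulated data. RPKM is scaled CPM divided by the summed exon length. Alternatives used DESeq2 1.42.0, limma-voom (limma 3.58.1), other scalings and filters, a replicate block, the compared groups only, and each library left out; a correction for GC content and transcript length (library-wise trends entered as offsets, with values for 99.8% of tested genes and all 10 described) was chosen after seeing the data. Genes are called uncertain when 10% or more of their exon bases overlap another gene. The genes and lists were chosen with earlier results of these data known. All 10 listed genes are named, and of each other list up to 4, those with the smallest larger p of both guides. Some genes that this rule would name are not reported here.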

Additional observations from a re-analysis of the deposited data

Results flagged for a closer look

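Abcg1 and Nceh1 were singled out because the guides moved them in opposite directions against safe sgRNA and differed in the direct test. Abcg1 differed by a log2 value of 0.396 between sgRNA 15 and sgRNA 11 (edgeR adjusted p = 1.71e-21), with 0.32 for sgRNA 15 and -0.08 for sgRNA 11 against safe sgRNA. Nceh1 differed by 1.13 (edgeR adjusted p = 9.04e-55), with 0.57 and -0.56. Both comparisons share the safe libraries, and the fall of Abcg1 with sgRNA 11 depends on the processing.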

How the results depend on the processing

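Of 537 alternative values of the 30 log2 differences of the 10 genes, 509 kept their direction and their side of the threshold, 17 lost and 3 gained a call, and 8 changed sign. No call was among the sign changes. Abca1 with sgRNA 15 turned to -0.041 after the GC and length correction, where the median over all tested genes was also -0.041. Apoe between the guides turned to 0.00091 with library size only, 0.085 after that correction, and ranged from -0.087 to 0.039 when each library was left out. Nr1h3 between the guides ranged from -0.050 to 0.23 in the same way. The 1 of the 10 genes that fell with sgRNA 11, Abcg1, became 0 with library size only, with no filter and with a minimum mean of 5 CPM, and this count ranged from 0 to 1 when each library was left out. The 2 genes lower with sgRNA 15 than with sgRNA 11 became 1 after the GC and length correction, and 1 to 2 when each library was left out. The cause of these changes was not tested. Nr1h3 has no value at a minimum mean of 5 CPM.

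Deviations from the group means correlated little between libraries of the same replicate number in different groups (-0.0077 to 0.058, median 0.017). For libraries of different numbers the values were -0.072 to 0.041 (median -0.0020). Of 9 libraries, 3 correlated best with their own number in both other groups. With correlations this low, the numbers were not used to pair. With a replicate block 8550 genes were called with sgRNA 15, 8940 with sgRNA 11 and 4695 between the guides, against 8459, 8849 and 4502 without it, and no call among the 10 genes changed. Low counts limit Nr1h3 and Apoe.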
